A study of Mus musculus with 4 samples.

Results

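The cells described here are the 137 blood CD4+ T cells that the authors placed in cluster 8 of their single-cell data, out of 1517 CD4+ T cells and 5794 cells in all. They were chosen by the authors' own table of cells, as those with both the annotation CD4+ T cell and the cluster number 8, and no measured level of a gene was used in the choice beyond what went into the authors' clustering and annotation. A further 6 B cells and 1 CD8+ T cell of cluster 8 were left out. The other 1380 CD4+ T cells, against which cluster 8 is set, belong to cluster 3 (784 cells), cluster 5 (444 cells) and cluster 7 (152 cells). Because the clusters were built from the expression of these same cells, every difference between cluster 8 and the other clusters is a description and carries no test.

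The study asked how non-thermal plasma (NTP), an ionized gas applied near body temperature, changes RNA in mice. The 4 mice were female wild-type C57BL/6 animals of 3.2 ± 0.3 months. The ear of 2 NTP mice was exposed for 10 min to the plume of an argon plasma jet under anaesthesia, whereas 2 control mice were anaesthetized only. Blood was drawn 120 min after the exposure or the onset of anaesthesia, mononuclear cells were isolated on a density gradient, and RNA was counted with droplet-based 3′ single-cell sequencing. In this method each captured molecule bears a unique molecular identifier (UMI), and levels are given here as CPM, the UMIs of a gene scaled to one common total for each group of cells.

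CD4+ T cells carry out the helper functions of adaptive immunity, and most of those that circulate in young mice are naive cells that have not met their antigen. Regulatory T cells are a suppressive branch defined by the transcription factor Foxp3, and they display the high-affinity interleukin receptor chain Il2ra and the inhibitory receptor Ctla4. Memory and effector cells have met antigen, and they are known for more adhesion molecules, galectins and calcium-binding S100 proteins and for less of the lymph node homing receptor Ccr7.

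The cells of cluster 8 came from all 4 mice, with 36 and 18 cells in NTP mice 1 and 2, and 44 and 39 cells in control mice 1 and 2. Their median was 4353 UMIs and 1733 genes per cell, against 4435 UMIs and 1585 genes in the other CD4+ T cells, and the median share of mitochondrial UMIs was 4.54% and 4.79%. The summed UMIs of cluster 8 were 198877 and 73616 in NTP mice 1 and 2, and 206289 and 146473 in control mice 1 and 2. A single UMI was thus worth 5.03 and 13.6 CPM in the NTP mice, and 4.85 and 6.83 CPM in the control mice. NTP mouse 2 was the shallowest, and the labels give it a name without the suffix that the other 3 mice share, whose meaning they do not state. Of all cells, 8 shared their barcode with a cell of another library, and 1 of these was in cluster 8.

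Per the paper, cells were annotated with known marker genes, so these markers describe the label CD4+ T cell and do not test it. At least 1 UMI of the T cell receptor component Cd3d was found in 88.3% of the cells of cluster 8 (Wilson 95% interval 81.9 to 92.7%), in 91.4% of the other CD4+ T cells and in 0.703% of B cells. The coreceptor Cd4 was found in 42.3% of the cells of cluster 8, in 44.1% of the other CD4+ T cells and in 0.160% of B cells (median 3364 UMIs per B cell). The CD8 coreceptor chain Cd8a had a UMI in 1 of 137 cells of cluster 8, which is 0.730%. The other chain, Cd8b1, had a UMI in 5 cells (3.65%), against 8.04% of the other CD4+ T cells. The B cell receptor component Cd79a had a UMI in 7 cells of cluster 8, never more than 1 per cell (5.11%, against 98.9% of B cells). None of the 10 members of the CD4+ T cell list was above or below the other CD4+ T cells by 2-fold or more in all 4 mice, and the summed level of the list was 5950 CPM in cluster 8 and 5548 CPM in the other CD4+ T cells. Intervals cover counting error only.

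To describe how cluster 8 differed, the log2 difference of each gene between cluster 8 and the other CD4+ T cells was taken within each mouse, on log2(CPM + 5), for the 9180 genes with at least 30 UMIs over all CD4+ T cells. A gene was counted as higher or lower when it differed by 2-fold or more in all 4 mice. By this rule 69 genes (0.752%) were higher in cluster 8 and 43 (0.468%) were lower, while the median over all 9180 genes was -0.02. With library sizes scaled by trimmed means (TMM), 47 genes were higher and 58 lower, and the median over all genes was -0.18. Without NTP mouse 2 the counts were 122 and 68. Without NTP mouse 1 the lower genes numbered 93, without control mouse 1 they numbered 98, and without control mouse 2 they numbered 86. Fewer mice then had to agree.

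The genes that define regulatory T cells were the clearest mark of cluster 8. Foxp3 (chrX:7573644-7595245, mm10, plus strand), the lineage factor of these cells, had 121 and 231 CPM in cluster 8 of NTP mice 1 and 2, and 136 and 81.9 CPM in control mice 1 and 2. In the other CD4+ T cells of the 4 mice it lay between 1.20 and 3.14 CPM. Cluster 8 was thus higher in every mouse, by 4.27 ± 0.71 on the log2 scale (mean ± SD, n = 4 mice), and it held 81 of the 95 Foxp3 UMIs of all CD4+ T cells (85.3%) although it held 137 of their 1517 cells.

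Ikzf2 (chr1:69531214-69687245, minus strand) encodes Helios, a zinc finger factor that marks most regulatory T cells formed in the thymus. It reached 800 and 489 CPM in cluster 8 of NTP mice, and 611 and 587 CPM in that of control mice, whereas the other CD4+ T cells had 4.79 to 8.89 CPM. Its mean log2 difference of 5.65 ± 0.17 (SD, n = 4 mice) was the highest of all genes counted as higher, and it varied little between mice. Il2ra (chr2:11642807-11693193, plus strand), the chain that gives the interleukin receptor its high affinity, had 151 and 163 CPM in cluster 8 of NTP mice, and 179 and 109 CPM in that of control mice. In the other CD4+ T cells it had 0.599 to 4.98 CPM, and the mean log2 difference was 4.38 ± 0.64.

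Receptors on the surface of regulatory T cells followed the same order. Ctla4 (chr1:60887000-60915832, plus strand), which takes costimulatory ligands away from antigen-presenting cells, had 870 and 1005 CPM in cluster 8 of NTP mice, and 858 and 471 CPM in that of control mice, against 43.9 to 58.7 CPM in the other CD4+ T cells. Unlike Foxp3, Ctla4 was thus well detected outside cluster 8 too, and cluster 8 held 60.4% of its UMIs among CD4+ T cells. Nrp1, a semaphorin coreceptor found on regulatory T cells of thymic origin, differed by 3.90 ± 0.65 on the log2 scale. Tnfrsf4, a costimulatory receptor (OX40), differed by 3.04 ± 0.54, and Tnfrsf18 (GITR), a related receptor, by 1.83 ± 0.32. Izumo1r, the folate receptor family member of these cells, was at 184 to 213 CPM in cluster 8 of the 4 mice and at 38.1 to 69.8 CPM in the other CD4+ T cells.

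Of the 24 genes of the regulatory list, all of which were measured, 14 passed the minimum of 30 UMIs. Of these, 11 were counted as higher in cluster 8, beside 0.752% of all genes. Without NTP mouse 2 there were 12, beside 1.33% of all genes. The 11 genes are Ikzf2, Il2ra, Foxp3, Nrp1, Ctla4, Tnfrsf4, Swap70, Tnfrsf9, Tnfrsf18, Izumo1r and Ikzf4, the last a relative of Ikzf2. Since such genes could pass the minimum through cluster 8 alone, the count says nothing beyond these values. The median log2 difference was 2.27 over the 14 members and 1.79 over all 24. The costimulatory receptor Icos differed by 0.80 ± 0.38, the adenosine-forming ectoenzyme Nt5e by 1.41 ± 0.58 and the actin-capping protein Capg by 1.04 ± 1.99, with no UMI in NTP mouse 2. Members under the minimum had few UMIs. Il10 and Lag3 had 0 UMIs in cluster 8, Ebi3 had 1 UMI, Itgae 3 UMIs, Tigit 6 UMIs and Entpd1 12 UMIs. Socs2, Lrrc32 and Gpr83 had 9, 15 and 17 UMIs in cluster 8, of 9, 17 and 25 in all CD4+ T cells. Each of these last genes had 0 UMIs in cluster 8 of NTP mouse 2. The summed level of the list in cluster 8 was 3138 and 2839 CPM in NTP mice, and 2923 and 2328 CPM in control mice, against 290.1 to 337.5 CPM in the other CD4+ T cells.

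**Figure D1:**
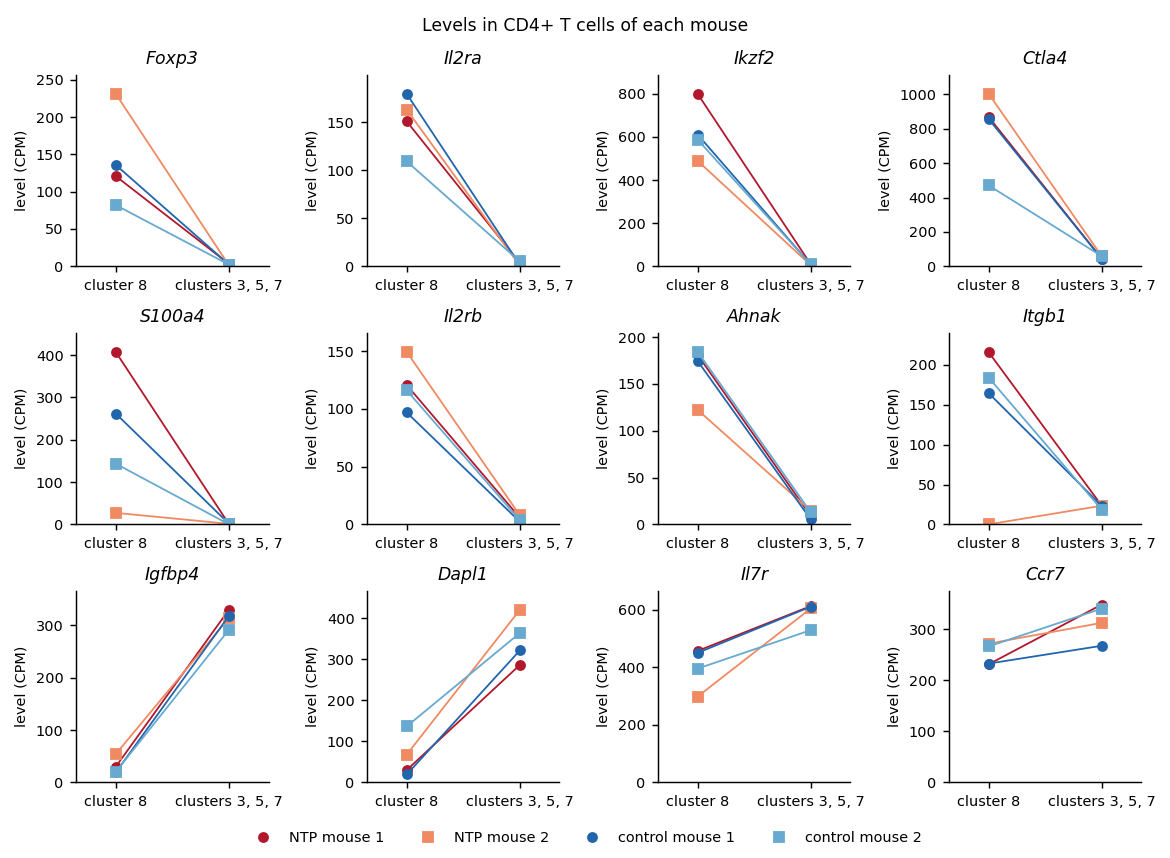
Levels in CPM (vertical axes, linear from 0) of 12 genes in cluster 8 (left) and in clusters 3, 5 and 7 together (right), with 1 line per mouse. Foxp3, Il2ra, Ikzf2 and Ctla4 were higher in cluster 8 in all 4 mice, S100a4 and Itgb1 were nearly or wholly undetected in cluster 8 of NTP mouse 2, Igfbp4 and Dapl1 were lower, and Il7r and Ccr7 lay closer together.

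Promoter sequences of the genes that were higher in cluster 8 were searched for the motif TTCNNNGAA, the spaced palindrome to which STAT factors downstream of cytokine receptors can bind, because the receptor chains Il2ra and Il2rb were among these genes. The search covered the 250 bases before each RefSeq start site (build GRCm38.p6), and a palindrome is read alike on both strands. Of the 69 genes, 52 had a promoter entry and 6 held the motif (11.5%), namely Foxp3, Il18r1, Mdfic, Ptprj, Tnfrsf18 and Tnfrsf9. Il2ra and Il2rb were not among these 6. Of all genes with an entry, 8.13% held the motif, and of the 9180 described genes, 7.01% of those with an entry. Among the 43 lower genes, 34 had an entry and 3 held it (8.82%). The windows of the 3 members of the regulatory list are shown, 5′ to 3′ along the gene, with the motif in capitals.
Foxp3, chrX:7580324-7580372, plus strand: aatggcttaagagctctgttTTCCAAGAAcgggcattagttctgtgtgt
Tnfrsf18, chr4:156026203-156026251, plus strand: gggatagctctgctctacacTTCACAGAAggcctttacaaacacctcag
Tnfrsf9, chr4:150927843-150927891, plus strand: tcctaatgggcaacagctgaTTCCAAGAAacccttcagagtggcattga
The motif began 139, 99 and 136 bases before the start site in Foxp3, Tnfrsf18 and Tnfrsf9. The GENCODE models of these 3 genes begin further upstream, so that the windows, placed by the RefSeq start site, lie inside the genes. A match describes these letters only and no binding was measured.

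The second mark of cluster 8 was a set of memory and effector genes, and it was less even between mice. S100a4 (chr3:90603771-90606045, plus strand), a calcium-binding protein of motile cells, had 407 and 27.2 CPM in cluster 8 of NTP mice 1 and 2, and 262 and 143 CPM in that of control mice 1 and 2. The other CD4+ T cells had 0 to 1.495 CPM, so that cluster 8 held 158 of the 163 S100a4 UMIs of all CD4+ T cells. The value of NTP mouse 2 rested on 2 UMIs. S100a6, its neighbour in the same gene cluster, had 262 and 0 CPM in cluster 8 of NTP mice 1 and 2, and 194 and 478 CPM in that of control mice, and therefore missed the rule. In the other CD4+ T cells S100a6 had 0 to 2.99 CPM.

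Itgb1, the shared beta chain of adhesion receptors for matrix, was likewise undetected in NTP mouse 2, where a count of 0 allows up to 3 UMIs. It had 216 and 0 CPM in cluster 8 of NTP mice 1 and 2, and 165 and 184 CPM in that of control mice, against 18.5 to 23.5 CPM in the other CD4+ T cells. By contrast, Il2rb, the signalling chain of the receptors for interleukins, and Ahnak, a large scaffold protein linked to calcium entry, were higher in all 4 mice. Il2rb had 121 and 149 CPM in cluster 8 of NTP mice, and 97.0 and 116 CPM in that of control mice. In the other CD4+ T cells it had 2.24 to 7.78 CPM. Cluster 8 held 72 of the 394 Il2rb UMIs of all cells (18.3%). Ahnak had 181 and 122 CPM in cluster 8 of NTP mice, and 175 and 184 CPM in that of control mice. In the other CD4+ T cells it had 5.23 to 14.4 CPM.

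Of the 26 genes of the memory and effector list, all measured, 21 passed the minimum and 4 were counted as higher, namely S100a4, Il2rb, Ahnak and the transcription factor Maf, beside 0.752% of all genes. Without NTP mouse 2, 12 of the 21 were 2-fold or more higher in the other 3 mice, with Anxa2, Cd44, Crip1, Itgb1, Lgals1, S100a6, S100a10 and S100a11 added, beside 1.33% of all genes. As with the regulatory list, S100a4 and S100a6 passed the minimum of 30 UMIs through cluster 8 alone, so nothing beyond the values is read from these counts. Over the 21 members the median log2 difference was 1.38, and over all 26 it was 1.41. The median was 0.29 in NTP mouse 2 and between 1.78 and 1.91 in the other mice. Lgals1 (galectin-1) differed by 2.25 ± 1.01, S100a11 by 1.54 ± 0.76, S100a10 by 1.38 ± 0.78, the hyaluronan receptor Cd44 by 1.45 ± 0.64 and the filament protein Vim by 1.25 ± 0.65. In each of these 5 genes NTP mouse 2 had the lowest difference. Itga4, Itgb7 and Selplg, adhesion molecules for entry into inflamed tissue and gut, differed by 0.52 ± 0.28, 0.64 ± 0.27 and 0.38 ± 0.26.

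Naive genes fell into those that were much lower in cluster 8 and those that were not. Igfbp4, an insulin-like growth factor binding protein made by naive T cells, had 30.2 and 54.3 CPM in cluster 8 of NTP mice, and 19.4 and 20.5 CPM in that of control mice, against 291 to 330 CPM in the other CD4+ T cells. Its log2 difference of -3.24 ± 0.57 (SD, n = 4 mice) was the lowest of all. Dapl1, a gene of naive and long-lived T cells, had 30.2 and 67.9 CPM in cluster 8 of NTP mice, and 19.4 and 136 CPM in that of control mice, against 286 to 420.3 CPM elsewhere. The actin regulator Rflnb was the only further member of the list counted as lower, at -1.69 ± 0.51.

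The other naive genes described here differed less. Lef1 and Tcf7, which keep T cells in the naive and stem-like state, differed by -1.01 ± 0.38 and -0.61 ± 0.37, and the survival receptor Il7r by -0.57 ± 0.29. S1pr1, which lets T cells leave lymph nodes, differed by 0.10 ± 0.34, Klf2, its activator, by -0.01 ± 0.21, and the homing receptor Ccr7 by -0.33 ± 0.18. TMM scaling moved the median of all genes to -0.18, which is more than the differences of S1pr1 and Klf2, so no direction is given for these genes. In all, 3 of the 16 naive genes were counted as lower, beside 0.468% of all genes, and the median of the list was -0.38. Without NTP mouse 2 there were 4, with Lef1 added, beside 0.741% of all genes.

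**Figure D2:**
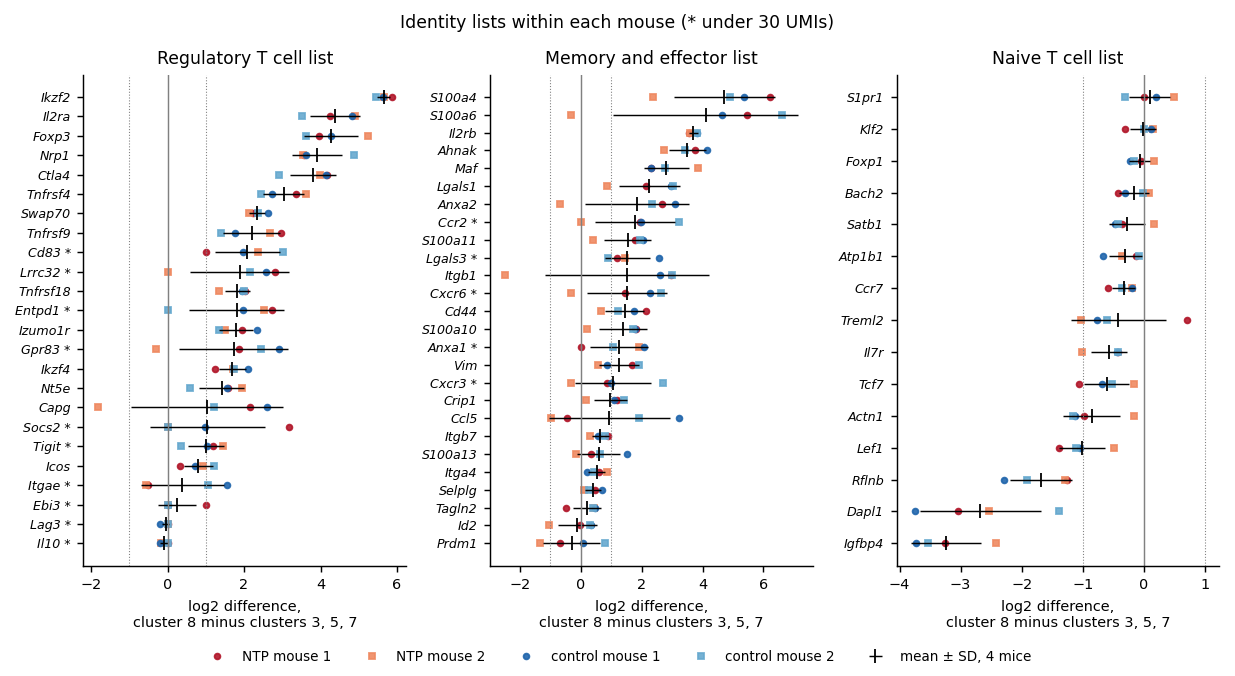
Log2 difference of log2(CPM + 5) between cluster 8 and the other CD4+ T cells (horizontal axes) for the members of the regulatory, memory and naive lists, with 1 naive gene not drawn, with coloured points for the 4 mice, black bars for mean ± SD and an asterisk for genes under 30 UMIs. The regulatory list had a median of 2.27 over its 14 members above that minimum, the memory list had one of 1.38, with NTP mouse 2 often lowest, and the naive list had one of -0.38.

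The lists of other helper fates had higher summed levels in cluster 8, although few of their members reached the minimum. In cluster 8 the Th1, Th17, Th2 and follicular helper lists had 539, 181, 122 and 1155 CPM, and in the other CD4+ T cells they had 251, 23.2, 47.3 and 771 CPM. Most of the Th17 sum came from Rora, and most of the Th2 sum from Gata3. The Th1 factor Tbx21 had 5 UMIs in cluster 8, the cytokine Ifng 3 UMIs, the Th2 cytokine Il4 0 UMIs, the Th17 cytokine Il17f 0 UMIs and the Th17 receptor gene Il23r 1 UMI. Gata3, the Th2 factor that regulatory T cells also use, differed by 1.08 ± 0.30 and met the rule without NTP mouse 2. Among helper lists, the rule was met by Il18r1, the receptor for an inflammatory interleukin (1.34 ± 0.39), Rora, a nuclear receptor of Th17 cells and tissue T cells (2.52 ± 0.73), and Maf (2.81 ± 0.73), which several helper types use. Of the other 7 kept follicular helper genes none met it, and the follicular factor Bcl6 and the nuclear factor Tox differed by 0.54 ± 0.87 and 0.09 ± 0.50. Of the interleukin receptor and STAT5 list, Il2ra and Il2rb met it, while the common chain Il2rg differed by 0.03 ± 0.27. Stat5a differed by 1.21 ± 0.49 and the feedback inhibitor Cish by 2.10 ± 1.17.

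Among the lists for other cell types, none of the 6 kept members of the cytotoxic list, the 2 of the NK and gamma delta list, the 10 of the B cell list or the 2 of the monocyte list was counted as higher or lower, and none of the 10 platelet and red blood cell genes reached the minimum. The summed level of the B cell list was 226 and 312 CPM in cluster 8 of NTP mice, and 199 and 219 CPM in that of control mice, against 158 to 229 CPM elsewhere. That of the NK and gamma delta list was 15.1 and 0 CPM in NTP mice, and 38.8 and 239 CPM in control mice 1 and 2, against 37.0 to 65.8 CPM elsewhere. The high value of control mouse 2 went with 3 cells that had 3 or more UMIs of gamma delta receptor constant genes, all of them in that mouse. In cluster 8, the defining genes Cd8a, Nkg7 and Prf1 had 3, 13 and 2 UMIs. Proliferation genes (5 kept), interferon response genes (26), immediate early genes (15), chemokine receptor and homing genes (13), genes of the NF-kB pathway (18) and the TGF-beta pathway (10), and 14 kept genes that the study had named as targets of the microRNAs miR-223-3p and miR-451a had no member counted in either direction. Without NTP mouse 2, Itgb1 of the homing list and Rgs2 of the target list were counted as higher, and Ifit3 of the interferon list as lower. Without control mouse 2, 2 immediate early genes and 1 TGF-beta gene were counted as higher, beside 1.1% of all genes. The NF-kB list summed to 2301 to 3165 CPM in cluster 8 of the 4 mice, against 1644 to 1765 CPM in the other CD4+ T cells. The interferon list summed to 2106 to 2773 CPM, against 1634 to 1906 CPM. Immediate early, homing and target sums were also higher in every mouse, while proliferation and TGF-beta sums were not. The target list had a median of -0.03, and its highest member, the G protein regulator Rgs2, differed by 1.40 ± 0.49.

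Outside the lists, the highest mean differences were those of Kcnq5, a potassium channel subunit (3.35 ± 0.64), Hdac9, a histone deacetylase (3.33 ± 1.80), Coro2a, a coronin (3.10 ± 0.24), Mdfic, a transcription modulator (3.01 ± 0.42), and St6galnac3, a sialyltransferase (2.61 ± 0.18). Hdac9 rested on few cells, as 43 of its 68 UMIs in cluster 8 came from 1 cell. Eea1 (early endosomes), Hopx (a homeodomain protein of effector and induced regulatory T cells), Sh3rf1 and Mctp1 followed at 2.58, 2.57, 2.56 and 2.52. In all, 23 of the 69 higher genes were also counted under every other pseudocount, scaling, depth and single reference cluster tried, among them Ikzf2, S100a4, Il2ra, Foxp3, Nrp1, Ctla4, Il2rb, Ahnak, Kcnq5, Tnfrsf4, Maf and Rora. Of the 43 lower genes this held for Igfbp4 and Dapl1. Many lower genes were rare, and 18 of them had 0 UMIs in cluster 8. Spef2, a sperm flagellar gene, had no UMI in cluster 8 and 19.0 CPM in the other CD4+ T cells, which makes it at least 3.95-fold lower when cluster 8 is set at 3 UMIs. Pde3b, a phosphodiesterase of cyclic nucleotides, had 20.1 and 204 CPM in cluster 8 of NTP mice 1 and 2, and 170 and 287 CPM in that of control mice, against 564 to 688 CPM elsewhere.

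In single cells, S100a4 was not found together with Foxp3 or Il2ra, whereas Ikzf2 shared cells with both S100 genes. Foxp3 had a UMI in 48 cells (35.04%, Wilson 95% interval 27.5 to 43.3%), against 0.942% of the other CD4+ T cells and 0.160% of B cells. After thinning every cell to 2000 UMIs, which left out 3 cells of cluster 8 and 14 of the others, Foxp3 was seen in 20.1% of the cells of cluster 8 and in 0.366% of the others. Ikzf2 had a UMI in 94 cells (68.6%, against 2.68% of the others), Il2ra in 53 (38.7%, against 1.09%) and Ctla4 in 107 (78.1%, against 15.9%). At 2000 UMIs, the Ctla4 shares were 63.4% and 9.22%. Of the Foxp3 cells, 31 also had Il2ra and 36 also had Ikzf2. S100a4 had a UMI in 17 cells, and none of them had a UMI of Foxp3 or Il2ra, whereas the product of the shares would be 5.96 and 6.58 cells. Ikzf2 was found in 7 of the 17 S100a4 cells, where that product would be 11.7 cells. S100a4 went with S100a6 in 12 of its 17 cells, with Lgals1 in 15 and with Itgb1 in 13. Ccr7 was found in 33 of the 48 Foxp3 cells and in 5 of the 17 S100a4 cells.

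The cells were therefore sorted, after these values were seen, by a UMI of Foxp3, Il2ra or Ikzf2 (regulatory markers) and by a UMI of S100a4 or S100a6 (S100 markers). Regulatory markers alone were found in 92 cells, both sets in 17, S100 markers alone in 15 and neither in 13. At this depth a cell without a UMI can still contain the transcript, so the 4 kinds are ranges and not types. The median depth was 4296 UMIs in the first, 5124 UMIs in the second, 4434 UMIs in the third and 3697 UMIs in the last. At least 1 regulatory marker was found in 109 cells (79.6%), against 3.32%, 6.08% and 4.61% of the cells of clusters 3, 5 and 7 and 0.831% of B cells. At least 1 S100 marker was found in 32 cells (23.4%), against 0.942% of the other CD4+ T cells and 6.52% of B cells.

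The levels of other genes in these kinds of cells are given over all mice together and with no test. Cells with S100 markers alone numbered 4 and 0 in NTP mice 1 and 2, and 5 and 6 in control mice 1 and 2. Their levels thus hold nothing from NTP mouse 2. Lgals1, Itgb1 and Ccr7 had been seen beside S100a4 or Foxp3 before the sorting, so their values restate that. Ccr7 had 312 CPM in cells with regulatory markers alone (exact Poisson 95% interval 261 to 369.7 CPM) and 86.2 CPM in cells with S100 markers alone (31.6 to 188 CPM), and the chromatin organizer Satb1 had 1264 CPM with regulatory markers alone and 259 CPM with S100 markers alone. Lgals1 went the other way, with 142 CPM (108 to 182 CPM) in cells with regulatory markers alone and 1523 CPM (1247 to 1842 CPM) in cells with S100 markers alone. So did Crip1, a small zinc-binding protein, with 678 CPM in cells with regulatory markers alone and 3794 CPM in cells with S100 markers alone. In the cells with S100 markers alone, Ahnak, Itgb1 and Il18r1 had 632, 532 and 489 CPM, and in those with regulatory markers alone they had 75.6, 66.1 and 35.4 CPM. Ctla4 was at 864 CPM in the cells with regulatory markers alone, 431 CPM in those with S100 markers alone and 1149 CPM in the 13 cells with neither, and its level in all of them was above the 51.1 CPM of the other CD4+ T cells. Tnfrsf18 had 156 CPM in the cells with regulatory markers alone and 1 UMI in all 15 cells with S100 markers alone. Il2rb, though on the memory list, had 139 CPM in the cells with regulatory markers alone (106 to 179.8 CPM). In those with S100 markers alone it had 71.9 CPM (23.3 to 168 CPM). All these intervals leave out the spread between cells and mice, so nothing is read from whether they overlap.

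The cells with both marker sets lay between these values for Ccr7, Lgals1, Crip1 and Itgb1, at 134, 452, 1063 and 220.0 CPM. They carried 53 of the 407 Ikzf2 UMIs but only 1 Foxp3 UMI. A few of these 17 cells held most UMIs of some genes in cluster 8. Of the 37 UMIs of the chemokine Ccl5, 34 lay in 3 of these cells, with 32 in 1 cell of control mouse 1. All 10 UMIs of the scavenger receptor Cd163l1 were in 1 cell, and 8 of the 11 of the gamma delta receptor gene Tcrg-C1 in 2 cells. Regulatory markers were found in 88.9% and 83.3% of the cells of cluster 8 in NTP mice 1 and 2, and in 75.0% and 74.4% in control mice 1 and 2. S100 markers were found in 27.8% and 5.56% in NTP mice 1 and 2, and in 22.7% and 28.2% in control mice 1 and 2. In NTP mouse 2 this was 1 of 18 cells.

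**Figure D3:**
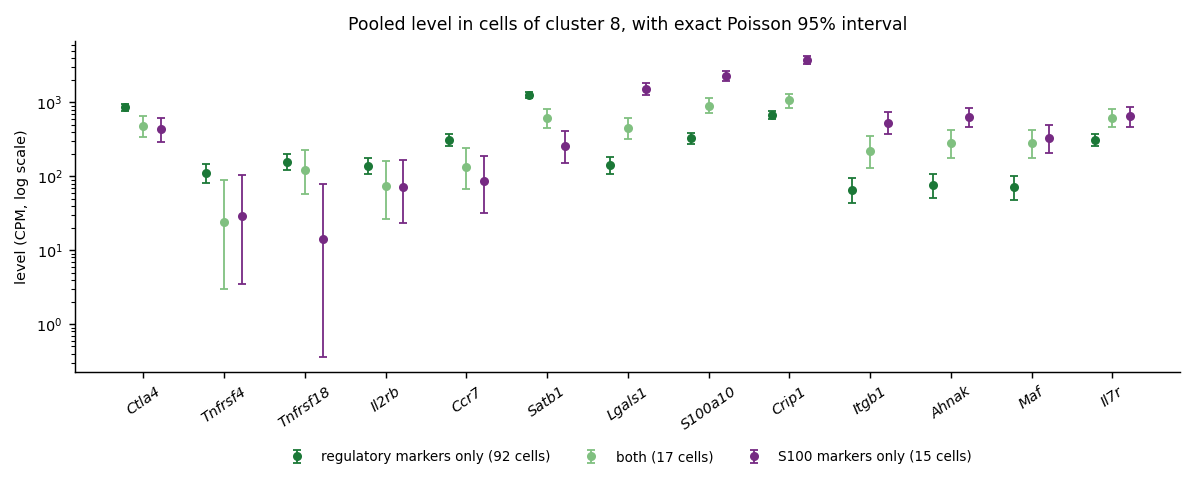
Pooled level over all 4 mice (CPM, log scale) of 13 genes not used for sorting, in cells of cluster 8 with regulatory markers alone, both sets or S100 markers alone, with exact Poisson 95% intervals for counting error. Ccr7 and Satb1 were highest in the 92 cells with regulatory markers alone, and Lgals1, S100a10, Crip1, Itgb1 and Ahnak in the 15 cells with S100 markers alone. NTP mouse 2 had 0 cells with S100 markers alone.

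Cluster 8 made up 9.11% and 4.59% of the CD4+ T cells of NTP mice 1 and 2 (Wilson 95% intervals 6.66 to 12.4% and 2.92 to 7.14%), and 14.6% and 9.09% of those of control mice 1 and 2 (11.1 to 19.1% and 6.72 to 12.2%). NTP mouse 1 and control mouse 2 had nearly the same share, so the groups overlapped. The mean share was 6.85% in NTP mice and 11.9% in control mice, a difference of -5.00 percentage points (p = 0.67 in a two-sided exact permutation test over 4 mice, which cannot go below 0.33). As a share of all cells, cluster 8 made up 2.36% and 1.056% in NTP mice, and 4.43% and 2.48% in control mice, and here the groups did not overlap (exact permutation p = 0.33). Without NTP mouse 2, the difference in the share of CD4+ T cells was -2.74 percentage points, and without control mouse 1 it was -2.24 percentage points. Fewer cells of a kind in the blood and fewer of them captured cannot be told apart.

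**Figure D4:**
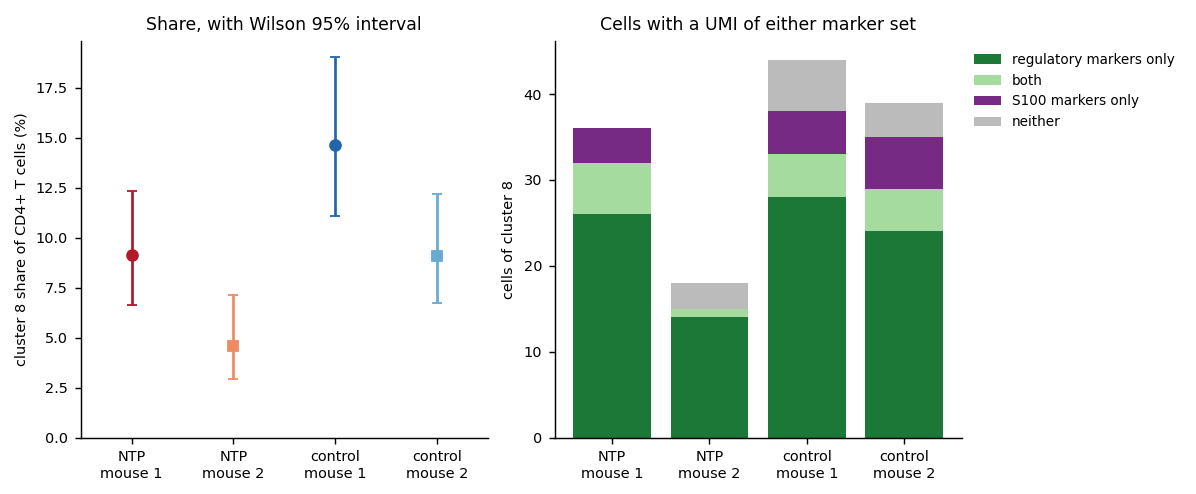
Left, cluster 8 as a percentage of the CD4+ T cells of each mouse with Wilson 95% intervals. Right, number of cells of cluster 8 in each mouse by marker set, with 92 cells with regulatory markers alone, 17 with both sets, 15 with S100 markers alone and 13 with neither over the 4 mice.

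Within cluster 8, no gene passed the test of NTP against control mice. UMIs were summed per mouse, and edgeR's quasi-likelihood test was applied to the 2912 genes that passed its filter on low counts. At an adjusted p of 0.05 the count was 0 (0.0%), the smallest adjusted p was 0.331, and 102 genes had an unadjusted p under 0.05 (3.5% of those tested). DESeq2 also called 0 genes and had 9 with an unadjusted p under 0.05. Both NTP mice were above both control mice in 462 genes (15.9%) and below them in 463 (15.9%). Without NTP mouse 1, 10 genes were called, without NTP mouse 2, 3 genes, and without control mouse 1, 2 genes, each time with 1 mouse in an arm that is assumed to vary like the others.

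The genes of regulatory identity did not separate the groups by this test. Foxp3, with the levels given above, had a log2 fold change of 0.50 ± 0.41 (SE), Ikzf2 one of 0.16 ± 0.24, Il2ra one of 0.06 ± 0.36, Ctla4 one of 0.45 ± 0.24 and Nrp1 one of -0.58 ± 0.39, each with an adjusted p of 0.9996 in edgeR. For Ctla4 both NTP mice were above both control mice, at 870 and 1005 CPM against 858 and 471 CPM. Of the 13 members of the regulatory list tested, 6 had a positive and 7 a negative fold change, 2 had both NTP mice above both control mice and 3 had both below, and the median was -0.02, beside -0.002 over all genes tested. Of 18 memory and effector genes, 5 had a positive and 13 a negative fold change (median -0.17), beside 1448 and 1464 of all genes tested. Of these 18 genes, 2 had both NTP mice above both control mice and 3 had both below. The part of NTP mouse 2, where 1 of 18 cells had an S100 marker, was not tested. Of 14 naive genes, 7 had a positive and 7 a negative one (median 0.01).

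The smallest p-values among named genes that were higher in NTP mice belonged to Nisch, Pip4k2a, Ubl3, Gimap5 and Ptk2b. Nisch, an integrin-binding protein, had 131 and 109 CPM in cluster 8 of NTP mice, and 38.8 and 41.0 CPM in that of control mice. Its log2 fold change was 1.61 ± 0.46 (SE, edgeR adjusted p = 0.831), and in the other CD4+ T cells it had 71.1 and 65.3 CPM in NTP mice, and 77.0 and 79.8 CPM in control mice. Pip4k2a, a phosphoinositide kinase, had 297 and 353 CPM in NTP mice, and 175 and 109 CPM in control mice. Ubl3, Gimap5, a GTPase for lymphocyte survival, and Ptk2b, a kinase of calcium and adhesion signals, had log2 fold changes of 1.33 ± 0.39, 1.33 ± 0.41 and 1.49 ± 0.47. The groups did not overlap in any of the 5 genes, as in 15.9% of all genes tested, and small p-values chose them.

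Among the named genes that were lower in NTP mice, Fto, an RNA demethylase, had 40.2 and 27.2 CPM in cluster 8 of NTP mice, and 155 and 116 CPM in that of control mice. In NTP mouse 2 this was 2 UMIs. Its log2 fold change was -1.90 ± 0.48 (edgeR adjusted p = 0.611). Fhit, a dinucleotide hydrolase, and Btbd9 had log2 fold changes of -1.63 ± 0.45 and -1.23 ± 0.42. Phf20l1, a chromatin reader and a target named by the study, had 181 and 163 CPM in NTP mice, and 334 and 321 CPM in control mice, with a log2 fold change of -0.91 ± 0.30 (edgeR adjusted p = 0.9996). In the other CD4+ T cells Phf20l1 had 280 and 251 CPM in NTP mice, and 328 and 341 CPM in control mice. Of the 13 targets of the study tested in cluster 8, 6 had a positive and 7 a negative fold change, with a median of -0.19. The paper had chosen these targets among genes that differed between NTP and control mice in the same single-cell data. Their fold changes are thus no independent evidence on targets.

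Lgals1 (chr15:78926725-78930465, plus strand) had 251 and 122 CPM in cluster 8 of NTP mice, and 431 and 430.1 CPM in that of control mice, with a log2 fold change of -1.064 ± 0.30 (edgeR adjusted p = 0.831). In the other CD4+ T cells it had 52.8 and 64.7 CPM in NTP mice, and 50.8 and 48.4 CPM in control mice. Lgals1 was higher in the cells with S100 markers alone, as given above. The share of cells with an S100 marker was 27.8% and 5.56% in NTP mice, and 22.7% and 28.2% in control mice. Some cells of cluster 8 had neither an S100a4 nor an S100a6 UMI. In these, Lgals1 had 88.3 and 132 CPM in NTP mice, and 146 and 230 CPM in control mice. These values did not overlap, but they rested on only 13 and 9 UMIs in NTP mice, and 23 and 23 UMIs in control mice. In the cells with regulatory markers Lgals1 had 209 and 109 CPM in NTP mice, and 134 and 298 CPM in control mice, which overlapped. The part of the mixture of cells in the difference was not tested. Without NTP mouse 1 the log2 fold change of Lgals1 was -1.81, and NTP mouse 2 then stood alone with 9 UMIs in 5 of 18 cells. Without NTP mouse 2 it was -0.79, without control mouse 1 -1.09 and without control mouse 2 -1.07.

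**Figure D5:**
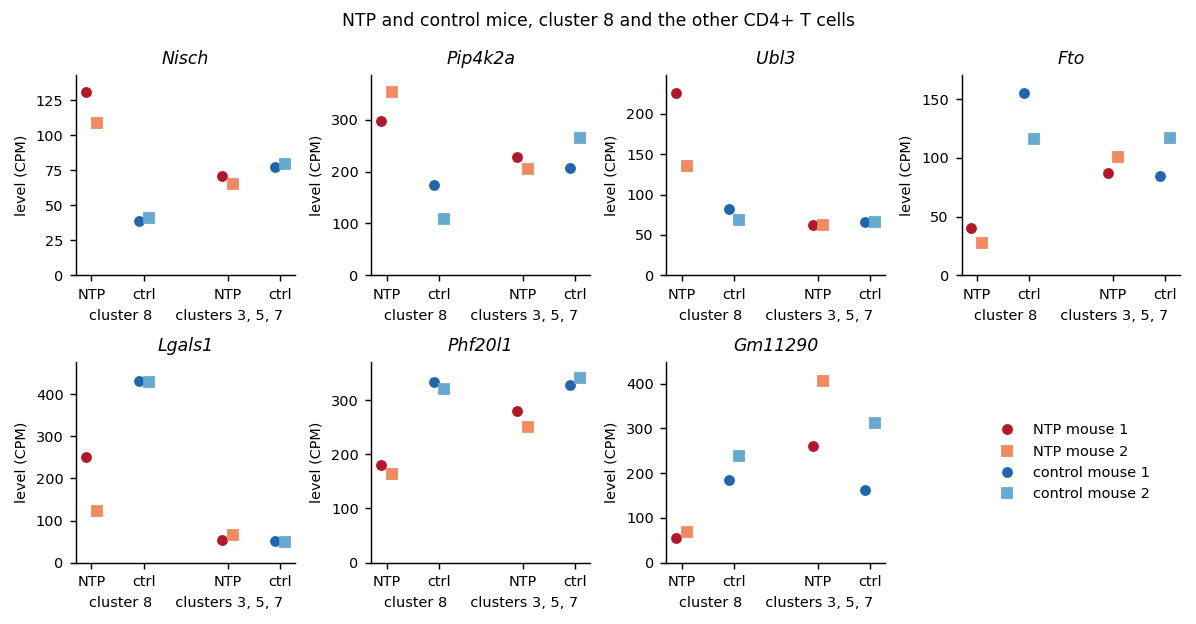
Levels in CPM (vertical axes from 0) of 7 genes in NTP and control (ctrl) mice, in cluster 8 on the left of each panel and in clusters 3, 5 and 7 on the right, with 1 point per mouse. In cluster 8 the groups did not overlap in these genes, which were chosen for their small p-values, and 0 genes passed the test within cluster 8.

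To ask whether cluster 8 responded otherwise than the other CD4+ T cells, the difference between both treatment effects was tested over 8097 genes in 1 edgeR model with the mouse as a block. A single gene passed (0.0124%), while 322 had an unadjusted p under 0.05. It was Gm11290 (chr13:22014468-22020738, mm10, plus strand), an annotated long noncoding RNA, which lay outside the rule for naming and is given because it was the only call. In cluster 8 it had 55.3 and 67.9 CPM in NTP mice, and 184 and 239 CPM in control mice. In the other CD4+ T cells it had 260.4 and 406 CPM in NTP mice, and 163 and 312 CPM in control mice. The difference of the log2 fold changes was -2.33 ± 0.41 (SE, adjusted p = 0.0001005), from -1.82 in cluster 8 and 0.53 in the other CD4+ T cells.

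The level of Gm11290 in the other CD4+ T cells came mainly from cluster 7. There it had 2028 and 2390 CPM in NTP mice, and 1690 and 2001 CPM in control mice, and every cell of cluster 7 had a UMI. In cluster 3 it had 71.4 and 52.1 CPM in NTP mice, and 36.0 and 25.6 CPM in control mice, and in cluster 5 it had 70.9 and 80.8 CPM in NTP mice, and 77.7 and 111 CPM in control mice. Cluster 7 made up 8.10% and 13.5% of the CD4+ T cells of NTP mice, and 5.98% and 11.4% of those of control mice. Against clusters 3 and 5 alone, the difference was -2.09 with an adjusted p of 0.118, and no gene passed. Without control mouse 1 the adjusted p was 0.145, and without the mouse as a block it was 0.507. Within cluster 8 alone Gm11290 did not pass (edgeR adjusted p = 0.331), and its UMIs came from 7 and 2 cells in NTP mice and from 8 and 11 cells in control mice.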

How the data were processed

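The deposited table holds UMI counts of 15093 genes, made by the authors with Cell Ranger 7.1.0 on mm10, and a second table gives their clusters and cell types from Seurat 4.3.0. Per the paper, ambient RNA, cells of extreme gene number or mitochondrial share and doublets were removed. No doublet caller was run again, and the sources used here do not say whether the counts include the ambient RNA step. The percentage of mitochondrial UMIs per cell is the authors' deposited value. The UMIs and genes per cell equalled the deposited ones in all 5794 cells, and 0 columns of per-sample values were left unused.

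Counts were summed per mouse and part, and the mouse was the replicate. edgeR 4.0.16 (R 4.3.3, TMM, its filter on low counts, Benjamini-Hochberg at 0.05) tested the treatment. DESeq2 1.42.0, RLE scaling, no filter and leaving out each mouse were alternatives. Levels and log2 differences between clusters used raw CPM with a pseudocount of 5 CPM. Steps were tested on simulated data. The paper's test treated cells as replicates and was not used. The cells, the lists of genes and what decides which genes are named (list members, the 20 highest and 15 lowest differences, the smallest p-values, the targets of the study) were chosen with earlier results of these data known. Gene positions are from GENCODE vM21. Unnamed gene models and receptor segments are not named, except Gm11290. A gene of the naive list is counted in that list but not reported here.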

Additional observations from a re-analysis of the deposited data

Results flagged for a closer look

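Gm11290 was the only gene whose treatment effect differed between cluster 8 and the other CD4+ T cells by a test of the difference itself, with an interaction of -2.33 on the log2 scale (edgeR adjusted p = 0.0001005, range over alternatives 0.0001544 to 0.507). Both NTP mice were below both control mice in cluster 8. Groups of 2 mice are too small for a search for single outlying samples.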

How the results depend on the processing

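With a pseudocount of 1 CPM, 88 genes were lower in cluster 8 and the median of the regulatory list was 2.97. With 20 CPM, 36 genes were higher, 7 were lower and that median was 1.51. Against cluster 3 alone 26 genes were lower, and against cluster 7 alone 26 were lower with a regulatory median of 2.94. The naive median was -0.65 against cluster 5 alone and -0.56 with TMM-scaled sizes. With cells thinned to 2000 UMIs, 143 genes were lower. Leaving out each mouse gave 84 to 122 higher and 68 to 98 lower genes (93 without NTP mouse 1, 86 without control mouse 2). The memory median was 1.03 to 1.71 and kept its direction in all settings.

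For the treatment, 3 genes passed with no filter on low counts, and 0 to 10 when each mouse was left out. For the interaction, 0 passed with no mouse block, 0 to 4 when each mouse was left out and 0 against clusters 3 and 5 only, a setting chosen after seeing the data. Ikzf2 turned to -0.30 without NTP mouse 1, and Il2ra to -0.19 without control mouse 2. Of 98 repeated values of single genes under treatment, 95 kept direction and side of the threshold. Most of these genes were chosen for small p-values and had groups that did not overlap, and none passed in the main setting. The choice of genes thus largely set this count, and no stability is read from it. The cause of the changes between settings was not tested. No paired analysis was possible because the labels give every mouse a number of its own and tie no NTP mouse to a control mouse. With 18 cells in NTP mouse 2, low levels could not be compared there.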
